A study of Sus scrofa with 15 samples.

Results

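Genes of the unfolded protein response and of protein folding in the endoplasmic reticulum (ER) were followed through pig oocyte maturation. A list of 48 gene symbols defined the set, and 47 of the 48 had a row among the 22516 genes of the deposited gene table. The rule used only the symbols, not the measured values. The sensor protease gene *MBTPS2* had no row under its symbol and was not analysed here. Pig oocytes were collected at the germinal vesicle (GV) stage, with no culture, from fresh ovarian follicles, or after 44 h of in vitro maturation of cumulus oocyte complexes. The polar body alone told the cultured groups apart: metaphase II (MII) libraries hold oocytes that had extruded it, and ‘damaged’ libraries hold oocytes in which none was seen. Both matured groups share the culture. Cumulus cells were removed with an enzyme in all groups, and the methods state a vortex step for GV oocytes. Each of the 15 libraries (5 per group) was made from poly(A) RNA of 15 oocytes, and no strain or animal age is stated. The methods describe 5 independent collections. MII and ‘damaged’ libraries together are called MIX, or matured. GV replicate 3, the library of lowest depth, was left out of the tests, so that 4 GV, 5 MII and 5 ‘damaged’ libraries were compared.

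The ER is where secreted and membrane proteins fold, and the oocyte makes its zona pellucida and its secreted growth factors there. Chaperones of the BiP complex hold unfolded chains, calnexin and calreticulin hold glycoproteins, and the protein disulfide isomerases with the ERO1 oxidases form disulfide bonds. Proteins that fail to fold are extracted and degraded by ER-associated degradation. A surplus of unfolded proteins activates the sensors IRE1 (*ERN1*), ATF6 and PERK (*EIF2AK3*). IRE1 splices the *XBP1* mRNA, ATF6 is cut by the site-1 and site-2 proteases, and PERK phosphorylates the initiation factor eIF2alpha, which lowers translation and favours *ATF4*. Fully grown GV oocytes hold a store of maternal mRNA, transcription is largely silent during maturation, and many stored mRNAs are degraded or change their poly(A) tails in that time.

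Estimated counts per library summed to between 6.40 M (GV replicate 3) and 23.6 M. For 7 of the 15 libraries, the like-named column of the gene table sums to the total of a different library, so gene counts were taken from each library's own transcript file and its label. The contrast of MII with ‘damaged’ rests on those labels. Markers of the oocyte (9 of 10 with a row) summed to between 11966 and 16454 TPM (transcripts per M, a level per transcript length) in GV libraries and between 2751 and 4762 in matured ones, and 5 of the 9 fell in the test below. Their part in the results was not tested. The 13 cumulus and granulosa cell markers with a row summed to 1.20 to 6.12 TPM over the 14 libraries, and none averaged above 0.525 TPM. Of these, *LHCGR*, *PTX3* and *KRT18* had no transcripts assigned to them and do not enter these values. Of the 8 theca and stroma markers, the 6 with a count summed to 8.44 to 21.1 TPM.

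Between GV and matured oocytes, 16 of the 46 members tested rose and 14 fell at an FDR under 0.01 (limma-voom with TMM factors, which assume that most genes do not change). Of all 13221 genes tested, 67% passed, 30.1% upward and 37% downward, so both shares of the members, 34.8% and 30.4%, lay near the background. With only the 8 libraries named alike in both kinds of file, a check chosen after seeing the data, 12 members rose and 14 fell. No member rose past a log2 fold change of 2, against 4.27% of all genes. The 5 members that fell past it, against 16.7% of all genes, were *SELENOS*, *DERL1*, *EIF2AK1*, *DERL3* and *WFS1*. The MIX and GV libraries did not overlap in 10 members that were higher and 9 that were lower after maturation, against 24.3% and 29.3% of all genes. The median log2 fold change of the members was 0.056, beside -0.16 over all genes.

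These directions are relative to the other mRNAs of a library, and the scaling sets where 0 lies. TMM factors were 1.35 to 1.73 in GV and 0.794 to 0.922 in matured libraries. On library sizes alone the median of all genes was -1.06, the median member lay lower by 0.89 (log2), and 1 member rose while 25 fell, against 11.9% and 60.1% of all genes. *EIF2AK4* rose and 14 members fell under both scalings. The other 15 members that rose with TMM factors were not called on library sizes, where 6 of them had a negative fold change. In these bulk libraries, less RNA per oocyte and RNA from fewer intact oocytes cannot be told apart.

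**Figure D1:**
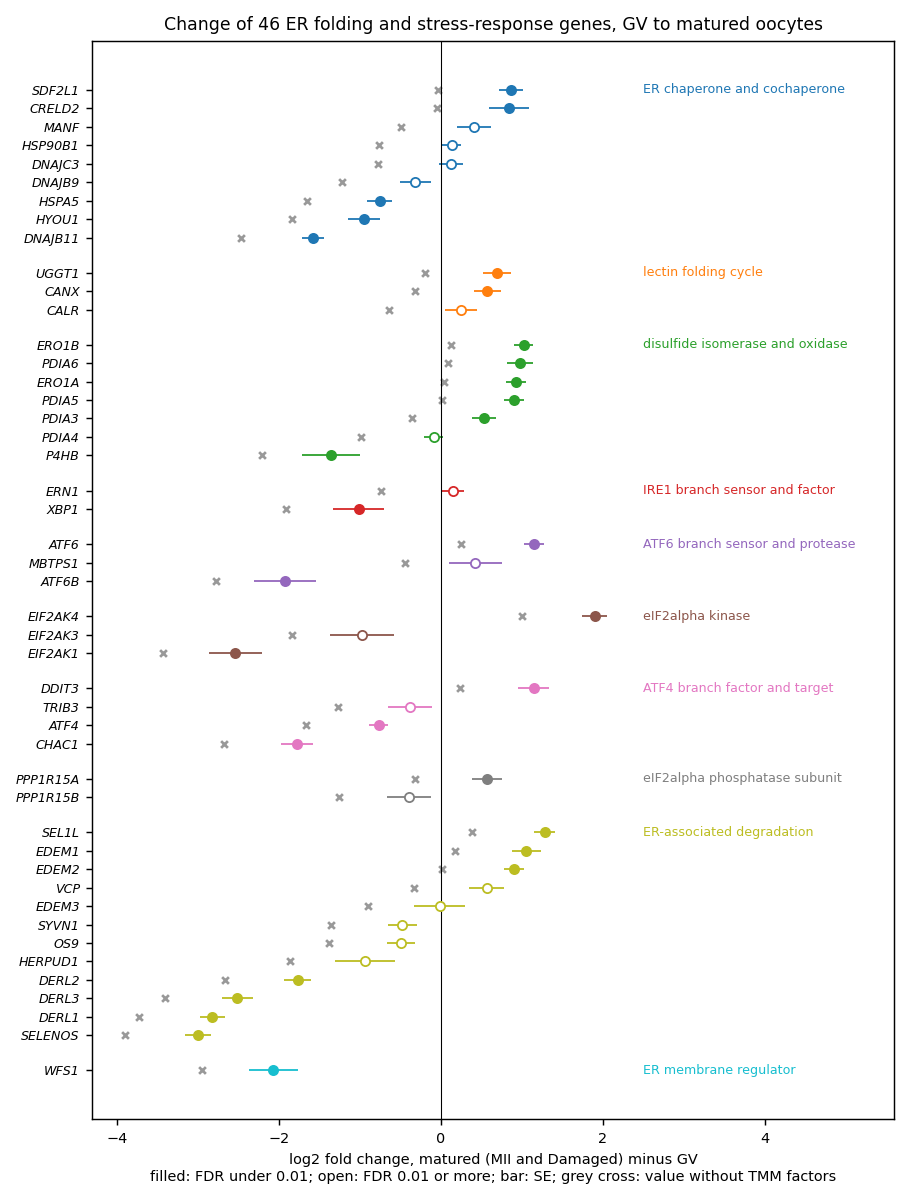
Log2 fold change of 46 genes (y axis, grouped by role) between matured oocytes (MII and ‘damaged’, n = 10) and GV oocytes (n = 4) on the x axis, with the SE as a bar, filled circles for an FDR under 0.01 and grey crosses for the fold change without TMM factors. The values run from -2.997 for *SELENOS* to 1.90 for *EIF2AK4*, and every role with more than 1 gene but the lectin cycle has genes on both sides of 0.

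Of the 9 ER chaperones tested, 2 rose, 3 fell and 4 were not called. The shares that rose and fell, 22.2% and 33.3%, lay near the 30.1% and 37% of all genes. *HSPA5* (ENSSSCG00000005601, chromosome 1, 265930044 to 265934959 on Sscrofa11.1) encodes BiP, the main ER chaperone of the HSP70 family and the classic readout of the unfolded protein response. *HSPA5* measured 219, 158, 138 and 171 CPM in the 4 GV libraries, 83.0, 111, 129, 107 and 77.9 in the MII libraries and 77.9, 102, 91.98, 99.3 and 139 in the ‘damaged’ libraries. Here CPM is the TMM-scaled count per M counts of the library, and values stand in the order of the replicate numbers, which for GV are 1, 2, 4 and 5. One ‘damaged’ library (139 CPM) reached the lowest GV library, and all other matured libraries lay below the GV group. *HSPA5* fell by 0.75 ± 0.16 on the log2 scale (SE, FDR = 0.000231). With only the 8 libraries named alike in both kinds of file the fold change was -0.51 and was not called (FDR = 0.0503). Of the GV group, these 8 hold only replicates 4 and 5. *HSP90B1* (ENSSSCG00000000849, chromosome 5, 80511513 to 80531016), which encodes the ER paralogue of HSP90, GRP94, was not called. *HSP90B1* measured 238, 256, 183 and 227 CPM in the 4 GV libraries, 225, 252, 245, 211 and 294 in the MII libraries and 249, 210.3, 283, 222 and 282 in the ‘damaged’ libraries. The groups overlapped throughout, and its fold change was 0.13 ± 0.12 (SE, FDR = 0.332) with TMM factors but -0.76 on library sizes and -0.19 with a filter of 10 CPM.

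The cochaperones of BiP moved in opposite directions as well. *DNAJB11* (ENSSSCG00000011798, chromosome 13, 124387921 to 124409967), an ER J-domain protein that delivers substrates to BiP, had the largest fall of the group. *DNAJB11* measured 67.7, 57.9, 55.6 and 49.97 CPM in the 4 GV libraries, 22.02, 19.6, 15.3, 18.2 and 26.4 in the MII libraries and 19.6, 16.1, 16.4, 19.5 and 21.7 in the ‘damaged’ libraries. No matured library came near the GV range, and the fold change was -1.57 ± 0.14 (SE, FDR = 2.73e-09). *SDF2L1* (ENSSSCG00000054186, chromosome 14, 50249607 to 50251636), a small partner of that J protein, had the largest rise. *SDF2L1* measured 44.7, 31.9, 41.9 and 30.9 CPM in the 4 GV libraries, 49.2, 60.6, 55.04, 61.3 and 83.4 in the MII libraries and 75.8, 62.3, 93.9, 67.5 and 70.9 in the ‘damaged’ libraries. All 10 matured libraries were above all 4 GV libraries, with a fold change of 0.87 ± 0.15 (SE, FDR = 3.48e-05), although on library sizes it was -0.032. Of the other chaperones, *CRELD2* rose (0.84, FDR = 0.00478, -0.041 on library sizes) and *HYOU1*, an exchange factor of BiP, fell (-0.95, FDR = 0.000203). In both genes the GV and matured libraries overlapped, and *CRELD2* was not called for MII oocytes alone against GV (FDR = 0.0416). The J-domain genes *DNAJB9* (-0.31) and *DNAJC3* (0.13) and the secreted protective factor *MANF* (0.41) were not called.

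In the calnexin cycle, 2 of 3 genes rose, beside 30.1% of all genes, and the third was not called. *UGGT1*, the folding sensor that puts glucose back on unfolded glycoproteins, changed by 0.69 (FDR = 0.00112) and the lectin gene *CANX* by 0.58 (FDR = 0.00423). On library sizes the values were -0.20 and -0.32. *CALR*, the soluble lectin of the same cycle, was at 0.25 (FDR = 0.244), and its transcripts changed far more than its total, as given below with the isoforms. When the estimated counts of the transcripts were summed without regard to their length, the fold change of *CANX* was 0.26 (FDR = 0.0952) and that of *CALR* -0.19 (FDR = 0.356).

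Disulfide bond formation had the highest share of rises, 5 of 7 genes, beside 30.1% of all genes. *ERO1B* (ENSSSCG00000010148, chromosome 14, 55056756 to 55122182), an oxidase that recharges the disulfide isomerases, had the largest. *ERO1B* measured 49.4, 62.3, 64.7 and 71.6 CPM in the 4 GV libraries, 131, 111, 107, 121 and 124 in the MII libraries and 125, 132, 129, 117 and 162 in the ‘damaged’ libraries. The lowest matured library lay well above the highest GV library, and the fold change was 1.02 ± 0.12 (SE, FDR = 2.14e-07), or 0.13 on library sizes. Its paralogue *ERO1A* (0.93, FDR = 1.38e-06) and the isomerases *PDIA6* (0.98, FDR = 1.02e-05), *PDIA5* (0.90, FDR = 2.24e-06) and *PDIA3* (0.53, FDR = 0.00322) rose too. The matured and GV libraries of *ERO1A*, *PDIA5* and *PDIA6* did not overlap, whereas those of *PDIA3* did. On library sizes the fold changes of these 4 genes lay between -0.36 and 0.089. *PDIA4* was at -0.087 and was not called. *P4HB*, the founding disulfide isomerase, went the other way and fell (-1.35, FDR = 0.00197), at a low level of 5.54 ± 3.93 TPM (SD, n = 4) in GV and 0.863 ± 0.447 (SD, n = 5) in MII oocytes. Its GV libraries (1.44 to 7.05 CPM) and matured libraries (0.849 to 2.84 CPM) overlapped. For ‘damaged’ oocytes alone against GV it was not called (FDR = 0.012).

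Of the 2 genes of the IRE1 branch, 1 fell, beside 37% of all genes. *ERN1* (ENSSSCG00000039909, chromosome 12, 14881913 to 14963290) encodes the kinase and RNase IRE1. *ERN1* measured 18.3, 29.4, 24.1 and 30.96 CPM in the 4 GV libraries, 28.8, 27.4, 28.1, 25.9 and 24.6 in the MII libraries and 31.6, 31.5, 27.6, 26.5 and 28.9 in the ‘damaged’ libraries. The groups overlapped, and the fold change was 0.15 ± 0.14 (SE, FDR = 0.337), with -0.74 on library sizes, -0.18 with a filter of 10 CPM and -0.01 with all 5 GV libraries. *XBP1* (ENSSSCG00000030996, chromosome 14, 46011239 to 46016526), the transcription factor mRNA that IRE1 splices, had the lowest mean TPM in GV oocytes among the 46 members tested, 0.62 ± 0.123 TPM (SD, n = 4), beside 10.2 ± 3.65 TPM for *ERN1*. In the 4 GV libraries *XBP1* (0.519 to 0.793 TPM) overlapped *EIF2AK3* (0.348 to 0.992) and *EDEM3* (0.426 to 0.763), so this rank is not set. *XBP1* measured 1.41, 0.918, 1.05 and 1.23 CPM in the 4 GV libraries, 0.914, 0.293, 0.837, 0.614 and 0.251 in the MII libraries and 0.514, 0.665, 1.12, 0.434 and 0.389 in the ‘damaged’ libraries. These values stand for 17.9 to 29.7 estimated counts per GV library and 3.86 to 18.5 per matured library. Its fold change was -1.01 ± 0.31 (SE, FDR = 0.0065), and its call changed with more alternatives than that of any other named member. It was lost with edgeR (FDR = 0.0159), DESeq2 (FDR = 0.0263) and in 8 of the 14 fits that left out 1 library, each with a fold change between -1.14 and -0.88.

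In the ATF6 branch, 1 of the 3 genes tested rose and 1 fell. These shares, 33.3% each, lay near the 30.1% and 37% of all genes. The paralogues *ATF6* and *ATF6B* went in opposite directions. *ATF6* (ENSSSCG00000006346, chromosome 4, 88591279 to 88806156) encodes the sensor whose cytosolic part becomes a transcription factor after cleavage. *ATF6* measured 126, 85.4, 92.6 and 77.8 CPM in the 4 GV libraries, 192, 201, 200.1, 227 and 194 in the MII libraries and 204, 219, 206, 250.01 and 189.5 in the ‘damaged’ libraries. Every matured library was above every GV library. The fold change was 1.15 ± 0.12 (SE, FDR = 5.67e-08), and 0.25 on library sizes. *ATF6B* (ENSSSCG00000001430, chromosome 7, 24153551 to 24171743), the related membrane factor, was low and fell further. *ATF6B* measured 0.651, 1.02, 1.18 and 2.44 CPM in the 4 GV libraries, 0.104, 0.516, 0.15, 0.206 and 0.422 in the MII libraries and 0.296, 0.166, 0.472, 0.522 and 0.325 in the ‘damaged’ libraries. The 2 ranges did not overlap, at 12.7 to 58.7 estimated counts per GV library and 1.10 to 8.11 per matured library, and the fold change was -1.92 ± 0.38 (SE, FDR = 0.000136). *MBTPS1*, which encodes the site-1 protease, was at 0.43 (FDR = 0.243) and was not called.

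Among the 3 eIF2alpha kinases tested, 1 rose and 1 fell, 33.3% each, near the 30.1% and 37% of all genes. *EIF2AK4* (ENSSSCG00000039061, chromosome 1, 131244818 to 131355240) encodes GCN2, the kinase that responds to uncharged tRNA and not to the ER, and it had the largest rise of all members. *EIF2AK4* measured 47.01, 43.7, 41.2 and 48.7 CPM in the 4 GV libraries, 201, 209.8, 123, 212 and 147 in the MII libraries and 130.1, 188, 156, 191 and 155 in the ‘damaged’ libraries. The lowest matured library was more than double the highest GV library, with a fold change of 1.90 ± 0.15 (SE, FDR = 9.48e-10) and of 1.01 on library sizes. *EIF2AK1*, the haem-regulated kinase HRI, fell by 2.54 on the log2 scale (FDR = 7.35e-07), from 3.88 ± 1.41 CPM (SD, n = 4) in GV oocytes to 0.521 ± 0.296 (SD, n = 5) in MII and 0.941 ± 0.761 (SD, n = 5) in ‘damaged’ oocytes. A single ‘damaged’ library at 2.30 CPM reached the GV range. *EIF2AK3* (ENSSSCG00000008208, chromosome 3, 57423894 to 57506247), which encodes PERK, the kinase of this family that senses the ER, was low. *EIF2AK3* measured 0.779, 1.05, 1.35 and 1.52 CPM in the 4 GV libraries, 0.754, 1.15, 0.384, 0.679 and 0.141 in the MII libraries and 1.999, 0.451, 0.759, 0.319 and 0.506 in the ‘damaged’ libraries. The ranges overlapped, at 15.2 to 36.5 estimated counts per GV library and 2.26 to 26.3 per matured library. Its fold change was -0.97 ± 0.40 (SE, FDR = 0.0328), not called, but without ‘damaged’ replicate 1, its highest library, it was -1.15 (FDR = 0.0088).

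Downstream of the kinases, 1 of the 4 genes tested of the ATF4 branch rose and 2 fell. These shares, 25% and 50%, stand beside 30.1% and 37% of all genes. *ATF4* (ENSSSCG00000059058, chromosome 5, 8742964 to 8745752) encodes the transcription factor whose translation rises when eIF2alpha is phosphorylated. *ATF4* measured 62.7, 78.8, 61.4 and 73.2 CPM in the 4 GV libraries, 45.9, 41.7, 37.9, 35.7 and 45.2 in the MII libraries and 38.97, 38.6, 35.8, 42.4 and 43.4 in the ‘damaged’ libraries. The matured libraries were all below the GV libraries, with a fold change of -0.77 ± 0.11 (SE, FDR = 5.01e-06). *CHAC1* (ENSSSCG00000038521, chromosome 1, 130360510 to 130363332), an ATF4 target that degrades glutathione, fell further. *CHAC1* measured 29.2, 22.4, 29.7 and 30.3 CPM in the 4 GV libraries, 4.87, 6.61, 7.01, 6.24 and 16.2 in the MII libraries and 7.60, 7.22, 9.85, 8.68 and 10.01 in the ‘damaged’ libraries. The highest matured library, MII replicate 5, stayed below the lowest GV library, and the fold change was -1.78 ± 0.20 (SE, FDR = 8.75e-08). *DDIT3*, which encodes the factor CHOP, rose instead (1.15, FDR = 1.70e-05, 0.24 on library sizes). Its GV libraries spread from 17.5 to 50.9 CPM and its matured libraries from 49.8 to 73.2 CPM, so that 1 GV library overlapped. *TRIB3*, a pseudokinase and target of both factors, was at -0.38 and was not called. *ATF3*, the member that did not pass the filter on low counts, had 1.68, 0.312, 0.144 and 0.673 CPM in GV libraries and at most 0.253 CPM in matured ones, and was not tested. Of the subunits that direct phosphatase 1 to eIF2alpha, the inducible *PPP1R15A* rose (0.57, FDR = 0.008, -0.32 on library sizes) and the constitutive *PPP1R15B* was at -0.39 and not called.

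**Figure D2:**
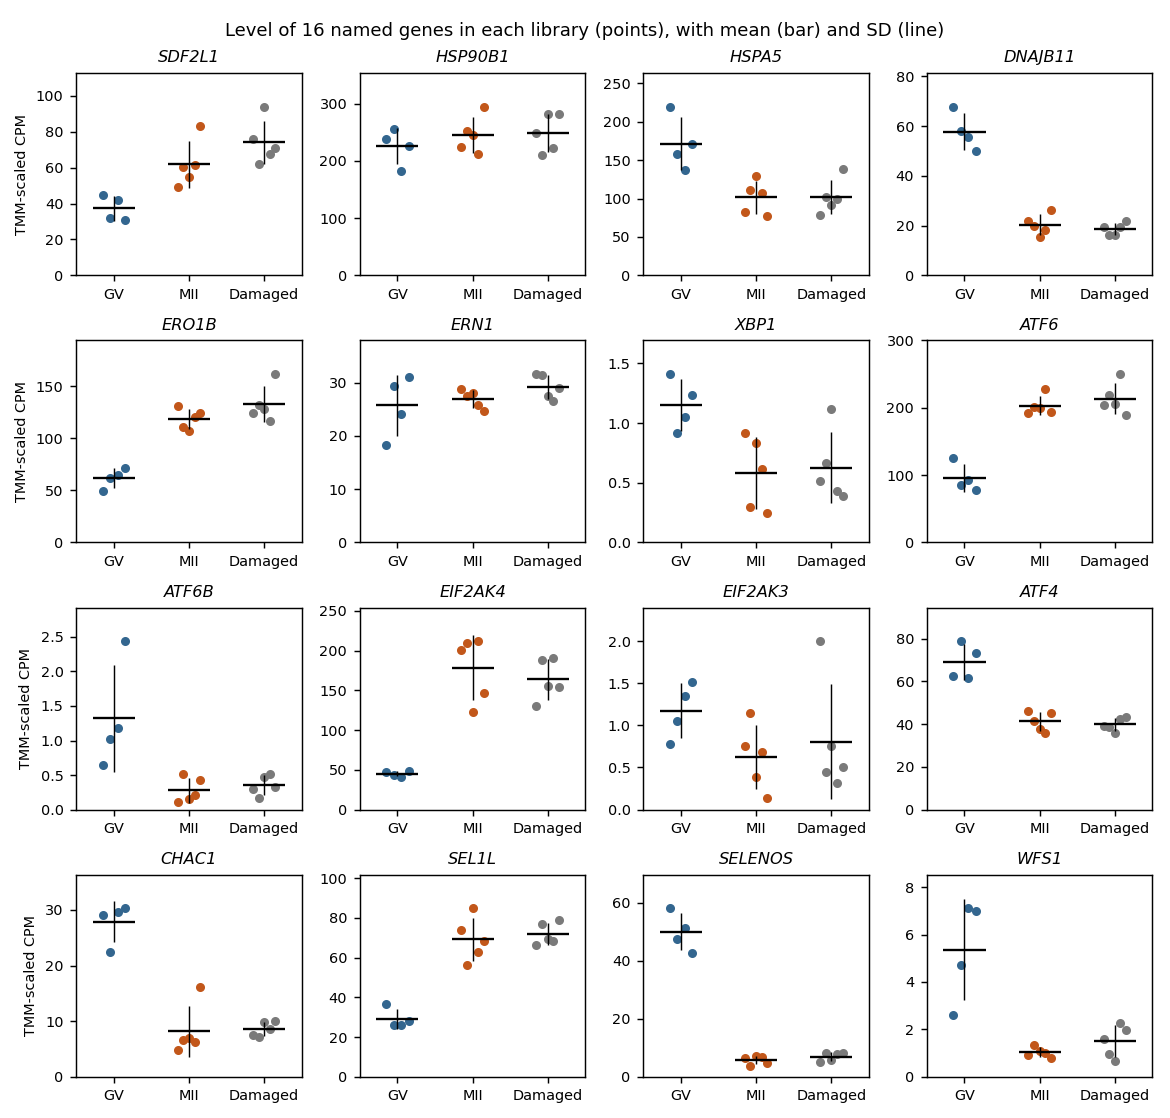
Level of 16 named genes in TMM-scaled CPM (y axes from 0, each with its own range) in 4 GV, 5 MII and 5 ‘damaged’ libraries (points), with the mean as a horizontal bar and the SD as a vertical line. *DNAJB11*, *ATF6B*, *ATF4*, *CHAC1*, *SELENOS* and *WFS1* show GV libraries above all matured libraries, and *ATF6*, *EIF2AK4*, *ERO1B*, *SDF2L1* and *SEL1L* the opposite. MII and ‘damaged’ points overlap in all 16 panels.

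ER-associated degradation had the most members, 12 tested. In this group 3 rose, 4 fell and 5 were not called. The shares that rose and fell, 25% and 33.3%, lay near the 30.1% and 37% of all genes. The rises were in *SEL1L*, the adaptor of the HRD1 ubiquitin ligase, and in *EDEM1* and *EDEM2*, which trim mannose from glycoproteins bound for degradation. The falls were in the 3 derlins, membrane proteins of the retrotranslocation channel, and in *SELENOS*, a selenoprotein that binds derlins and the ATPase VCP. *SELENOS* (ENSSSCG00000004826, chromosome 1, 139829002 to 139836923) had the largest fall of all members. *SELENOS* measured 58.01, 47.6, 51.3 and 42.8 CPM in the 4 GV libraries, 6.46, 3.61, 7.09, 6.98 and 4.79 in the MII libraries and 4.97, 8.19, 5.64, 7.86 and 8.02 in the ‘damaged’ libraries. The GV mean was 49.9 ± 6.42 CPM (SD, n = 4) and the matured mean 6.36 ± 1.56 (SD, n = 10), a fold change of -2.997 ± 0.16 (SE, FDR = 3.99e-12). *DERL1* (-2.82 ± 0.16, FDR = 4.40e-12), *DERL3* (-2.51, FDR = 3.23e-10) and *DERL2* (-1.77, FDR = 6.85e-09) fell as well, each with no overlap between the 4 GV and the 10 matured libraries. On library sizes these 4 genes were between -3.90 and -2.67.

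*SEL1L* (ENSSSCG00000002414, chromosome 7, 104219628 to 104283250) was the largest rise of the group. *SEL1L* measured 36.5, 25.9, 25.8 and 28.3 CPM in the 4 GV libraries, 73.7, 56.2, 84.8, 62.7 and 68.3 in the MII libraries and 66.5, 77.03, 69.4, 68.3 and 78.9 in the ‘damaged’ libraries. All matured libraries were above the GV libraries and the fold change was 1.28 ± 0.13 (SE, FDR = 3.19e-08). This value comes from counts that are corrected for transcript length. Summed estimated counts, which are not, gave -0.26 (FDR = 0.0432), and on library sizes the fold change was 0.38. The transcripts of *SEL1L* also changed in length, as given below. *EDEM1* (1.05, FDR = 2.16e-05) and *EDEM2* (0.91, FDR = 1.39e-06) rose with no overlap of the groups, and their fold changes on library sizes were 0.18 and 0.016. Not called were *VCP* (0.57), the lectin *OS9* (-0.49), the ligase *SYVN1* (-0.48), *EDEM3* (-0.014) and *HERPUD1* (-0.93), the last at 12.5 to 40.6 estimated counts per GV library and 3.76 to 16.1 per matured library. *WFS1* (ENSSSCG00000032452, chromosome 8, 4362678 to 4405185), an ER membrane protein that restrains ATF6 signalling, was the last member to fall. *WFS1* measured 2.60, 4.73, 7.11 and 6.98 CPM in the 4 GV libraries, 0.937, 1.35, 1.07, 0.996 and 0.799 in the MII libraries and 1.58, 0.977, 0.66, 2.28 and 1.99 in the ‘damaged’ libraries. The lowest GV library was above the highest matured library, and the fold change was -2.07 ± 0.30 (SE, FDR = 3.31e-06).

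Because TPM is a level per length, it allows the members to be ordered within an oocyte. In GV oocytes *MANF* (341 ± 65.1 TPM, SD, n = 4), *DERL2* (219.6 ± 25.9), *PDIA3* (179.8 ± 63.7), *HSPA5* (168 ± 28.8) and *HSP90B1* (162 ± 34.8) had the highest means. The SD ranges of *DERL2*, *PDIA3*, *HSPA5* and *HSP90B1* overlapped, so their order is not set by these libraries. In MII oocytes *MANF* (215 ± 64.2 TPM, SD, n = 5), *PDIA3* (119.8 ± 24.3) and *DDIT3* (106 ± 7.45) had the highest, and in ‘damaged’ oocytes *MANF* (239 ± 62.9, SD, n = 5), *PDIA3* (132 ± 38.5) and *PDIA6* (105 ± 33.4). The SD ranges of *PDIA3* and *DDIT3* in MII and of *PDIA3* and *PDIA6* in ‘damaged’ oocytes overlapped as well. *DDIT3* was at 96.0 to 122 TPM in the ‘damaged’ libraries, within the range of *PDIA6* there (68.3 to 147). The order of *DDIT3* and *PDIA6* in ‘damaged’ oocytes is therefore not set either. *DERL2* was at 31.96 ± 7.95 TPM in MII oocytes. Together the 47 members made up 0.235 ± 0.0208% of the TPM in GV oocytes (SD, n = 4). Their share was 0.125 ± 0.0159% in MII and 0.138 ± 0.0209% in ‘damaged’ oocytes (SD, n = 5 each). Such a share is scaled to the total of its own library, much as in the fit on library sizes. In that fit the typical gene stood at -1.06 and the typical member at -0.84 (medians, log2, matured minus GV). Whether the lower share is particular to these members was not tested.

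**Figure D3:**
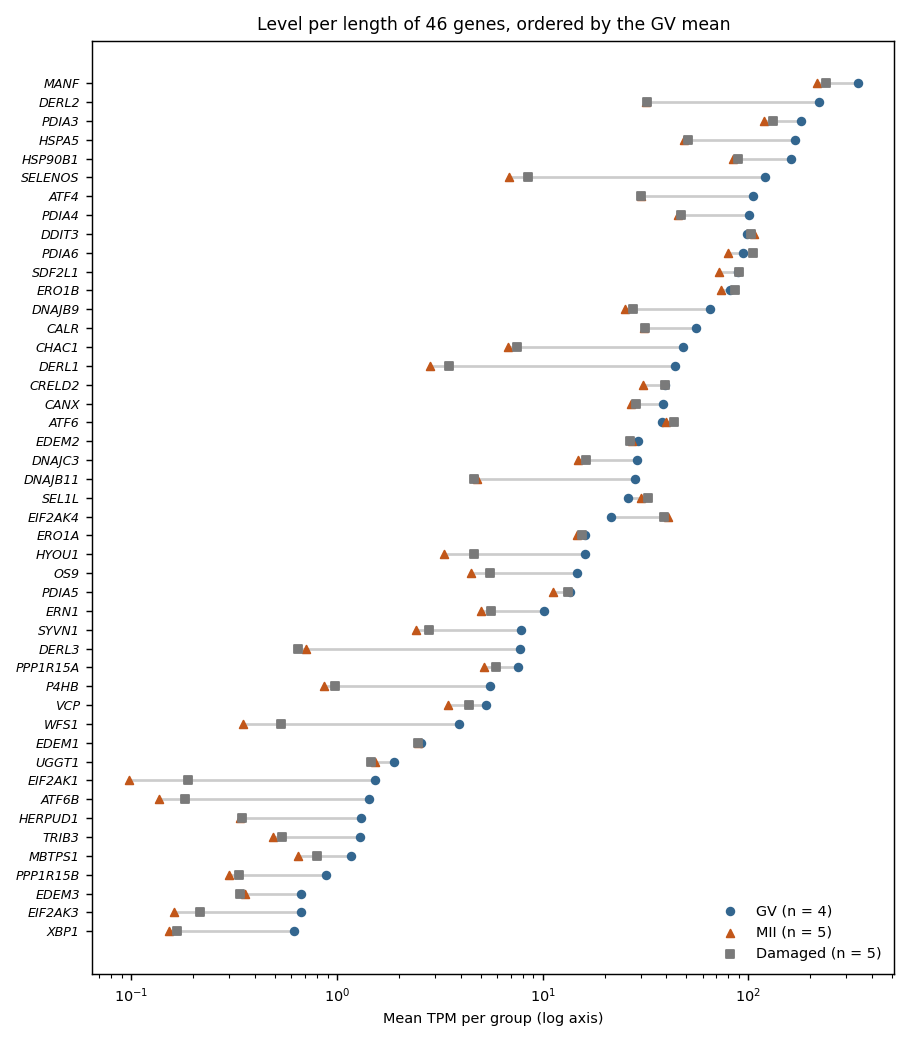
Mean TPM of 46 genes (log x axis) in GV (circles, n = 4), MII (triangles, n = 5) and ‘damaged’ oocytes (squares, n = 5), ordered by the GV mean. *SELENOS*, *DERL1*, *DERL2* and *CHAC1* drop furthest among the genes above 40 TPM in GV oocytes, and the MII and ‘damaged’ means lie close together.

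Ratios of 2 members within a library do not depend on the scaling between libraries. The pairs were chosen after their values were seen, so the ratios are a description. The ratio of *EIF2AK4* to *EIF2AK1* in TPM was 11.5 to 26.1 in GV, 149 to 749.7 in MII and 84.5 to 399 in ‘damaged’ libraries. That of *ATF6* to *ATF6B* was 12.8 to 77.2, 156 to 742 and 175 to 527. *HSP90B1* to *HSPA5* stood at 0.782 to 1.17, 1.36 to 2.72 and 1.46 to 2.30. In each pair the partner named first gained on the other, with no overlap between the 4 GV and the 10 matured libraries. The same held for *DDIT3* to *ATF4*, at 0.535 to 1.81 in GV, 3.29 to 3.77 in MII and 2.56 to 3.85 in ‘damaged’ libraries. For *SEL1L* to *DERL1*, where the length of *SEL1L* transcripts enters, it was 0.53 to 0.634, 8.44 to 12.9 and 7.90 to 15.2. GV replicate 3, which was in no test, had 3.47, 10.7 and 0.336 for *EIF2AK4* to *EIF2AK1*, *ATF6* to *ATF6B* and *DDIT3* to *ATF4*, below the range of all matured libraries, but 1.72 for *HSP90B1* to *HSPA5*, within it.

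Isoform usage was then compared between GV and matured oocytes. The isoform fraction is the share of a transcript in the TPM of its gene. Of 57 transcripts of 19 members tested, 18 transcripts in 9 genes changed at an FDR under 0.01 (limma diffSplice) with a difference in fraction over 0.1, that is 31.6% of the transcripts, beside 28.4% of all 14542 transcripts tested. At the gene level this was 9 of 19 members against 41.2% of all genes. The 9 genes were *HSP90B1*, *CALR*, *CANX*, *UGGT1*, *ATF6*, *EIF2AK4*, *SEL1L*, *DERL2* and *OS9*. Of these, *HSP90B1*, *CALR* and *OS9* were not called for their total level.

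For *HSP90B1* and *CALR*, the transcripts changed with no call for the total. In *CALR*, the transcript ENSSSCT00000098120.1 of 1258 bases made up 3.89, 0.513, 1.81 and 1.91% of the gene in the GV libraries, 84.1, 87.96, 89.9, 87.9 and 77.9% in the MII libraries and 83.3, 78.1, 76.8, 81.2 and 88.6% in the ‘damaged’ libraries (FDR = 1.14e-07). It was a minor form in every GV library and the main form in every matured library. The longer transcripts ENSSSCT00000015020.5 (1893 bases) and ENSSSCT00000048882.3 (1689 bases) went from 29.8 ± 3.996% and 19.4 ± 4.07% (SD, n = 4) to 3.38 ± 2.55% and 0.122 ± 0.387% (SD, n = 10). In *HSP90B1*, the transcript ENSSSCT00000101408.1 (3346 bases) was at most 0.937% of the gene in GV libraries and at least 31.9% in matured libraries, with a mean of 50.01 ± 11.4% (SD, n = 10, FDR = 1.93e-07). The transcript ENSSSCT00000047341.3 (3535 bases) was lost over the same time, from 10.96 ± 2.37% (SD, n = 4) to at most 0.000164%. The main GV form, ENSSSCT00000000926.5 (3505 bases), went from 88.8 ± 2.66% (SD, n = 4) to 49.99 ± 11.4% (SD, n = 10) and was not called (FDR = 0.04).

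*SEL1L* changed between a long and a short form. The transcript of 6550 bases, ENSSSCT00000049435.3, made up 48.9, 76.98, 73.3 and 65.4% of the gene in GV libraries, 14.3, 15.9, 8.49, 15.9 and 8.87% in MII and 12.8, 12.2, 8.92, 9.52 and 13.3% in ‘damaged’ libraries. The transcript of 1024 bases, ENSSSCT00000085937.2, held nearly all of the rest (FDR = 4.80e-11 for each). The mean length of *SEL1L* mRNA, weighted by TPM, was 4679 ± 691 bases in GV (SD, n = 4) and 1695 ± 164 in matured oocytes (SD, n = 10). Smaller shifts of the mean length were seen for *CANX*, 4137 ± 25.5 to 3313 ± 315 bases, *CALR*, 1801 ± 11.4 to 1352 ± 28.9 bases, and *ATF6*, 6149 ± 145 to 5738 ± 68.7 bases. *UGGT1* (5156 ± 133 to 4752 ± 119 bases) and *HSP90B1* (3508 ± 0.673 to 3425 ± 18.1 bases) went down too. *EIF2AK4* changed little, 5080 ± 18.6 to 5069 ± 14.3 bases. In *OS9* the mean length went up instead, from 2319.8 ± 88.3 to 2587 ± 48.98 bases, and in *DERL2* from 1667 ± 37.0 to 1714 ± 50.8 bases.

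In *CANX*, the main GV transcript ENSSSCT00000043326.3 (4146 bases, 63.99 ± 10.7%, SD, n = 4) was at 2.54 ± 5.61% after maturation (SD, n = 10, FDR = 0.00011), and ENSSSCT00000063958.3 (3815 bases) went from 7.94 ± 3.39% to 46.8 ± 7.34% (FDR = 6.82e-05). In *ATF6*, ENSSSCT00000086014.1 (5073 bases) went from 30.4 ± 15.96% to 68.4 ± 4.96% and ENSSSCT00000006954.5 (6072 bases) from 43.1 ± 17.6% to 7.35 ± 3.97%. The 6 called transcripts of *UGGT1*, *EIF2AK4*, *DERL2* and *OS9* differed by -39.05 to 37.7 percentage points, matured minus GV. GV replicate 3, in no fit, was on the GV side for several called forms. It had 90.7% of *SEL1L* in its long transcript, 94.9% of *CANX* in ENSSSCT00000043326.3 and 0% of *CALR* in ENSSSCT00000098120.1. For others it lay in the matured range and outside that of the other GV libraries. Examples are 0% of *CALR* in ENSSSCT00000015020.5 and 89.6% of *UGGT1* in ENSSSCT00000091066.2. Reads shared by transcripts of 1 gene are divided by Kallisto, so a fraction is an estimate, and a gene's transcripts are not independent of each other.

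**Figure D4:**
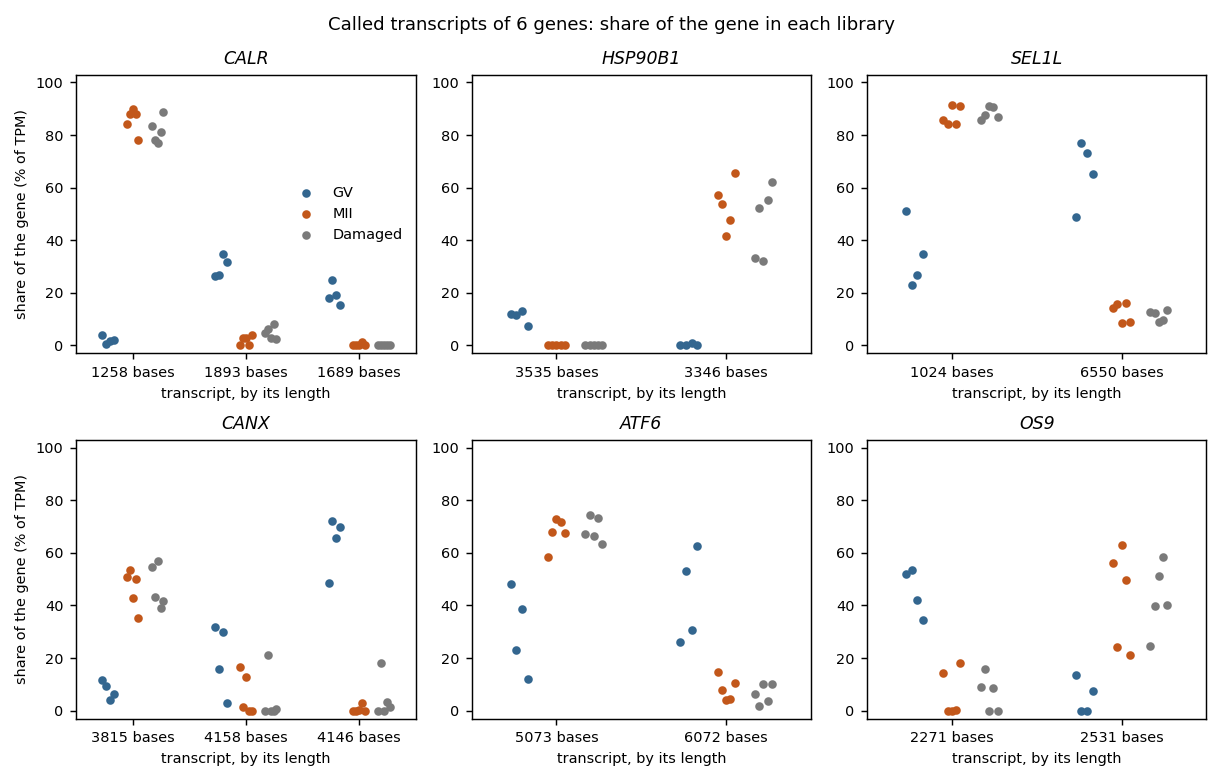
Share of the gene's TPM (y axis, %) held by each called transcript of 6 genes, named on the x axis by its length in bases, in 4 GV (blue), 5 MII (orange) and 5 ‘damaged’ libraries (grey). For *CALR* the transcript of 1258 bases goes from under 4% in GV to over 76% in matured libraries, and for *SEL1L* the transcript of 6550 bases goes from over 48% to under 16%.

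Taken one at a time against the same GV libraries, MII oocytes had 13 members that rose and 13 that fell (background 28.2% and 34.2%), and ‘damaged’ oocytes 15 and 12 (background 28% and 33.4%). Both contrasts share the 4 GV libraries, so their likeness is in part built in. Past a log2 fold change of 2 there were 6 falls in MII and 4 in ‘damaged’ oocytes, against 17% and 16.4% of all genes. No member rose past it in either, against 4.51% and 4.08%. *SELENOS* was at -3.13 ± 0.20 (SE, FDR = 7.14e-11) in MII and -2.86 ± 0.20 (SE, FDR = 1.72e-10) in ‘damaged’ oocytes. *EIF2AK4* was at 1.95 ± 0.17 (SE, FDR = 5.22e-09) and 1.85 ± 0.17 (SE, FDR = 1.17e-08). *HSPA5* was at -0.76 ± 0.18 (SE, FDR = 0.000905) and -0.75 ± 0.18 (SE, FDR = 0.000946). *WFS1* and *ATF6B* passed a fold change of 2 downward in MII (-2.27 and -2.12) and not in ‘damaged’ oocytes (-1.86 and -1.72), but the difference between these groups was not called for either gene.

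Compared directly, MII and ‘damaged’ oocytes differed in none of the 46 members at an FDR under 0.01, and in none of all 13221 genes tested (0%). At an unadjusted p under 0.05 there were 0 members by limma-voom, edgeR and DESeq2 alike, against 195, 274 and 252 of all genes. The members' log2 differences, MII minus ‘damaged’, ran from -0.73 for *EIF2AK1* to 0.27 for *EDEM3*. Their median was -0.10, beside 0.00089 over all genes, and 33 of 46 were below 0. In no member were the 5 MII and 5 ‘damaged’ libraries free of overlap. The share of all genes free of overlap between these groups is not given here, so that count is a description only. A test that misses the threshold does not show that the groups are alike, so the 95% intervals are what bounds the difference. For 38 of 46 members the interval lay within a log2 difference of 1 in either direction. The interval was -0.37 to 0.36 for *HSPA5*, -0.23 to 0.32 for *ATF4*, -0.31 to 0.51 for *DDIT3* and -0.30 to 0.25 for *HSP90B1*. It was wide where counts were few, as in *ATF6B* (-1.58 to 0.77) and *EIF2AK3* (-1.44 to 0.76).

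**Figure D5:**
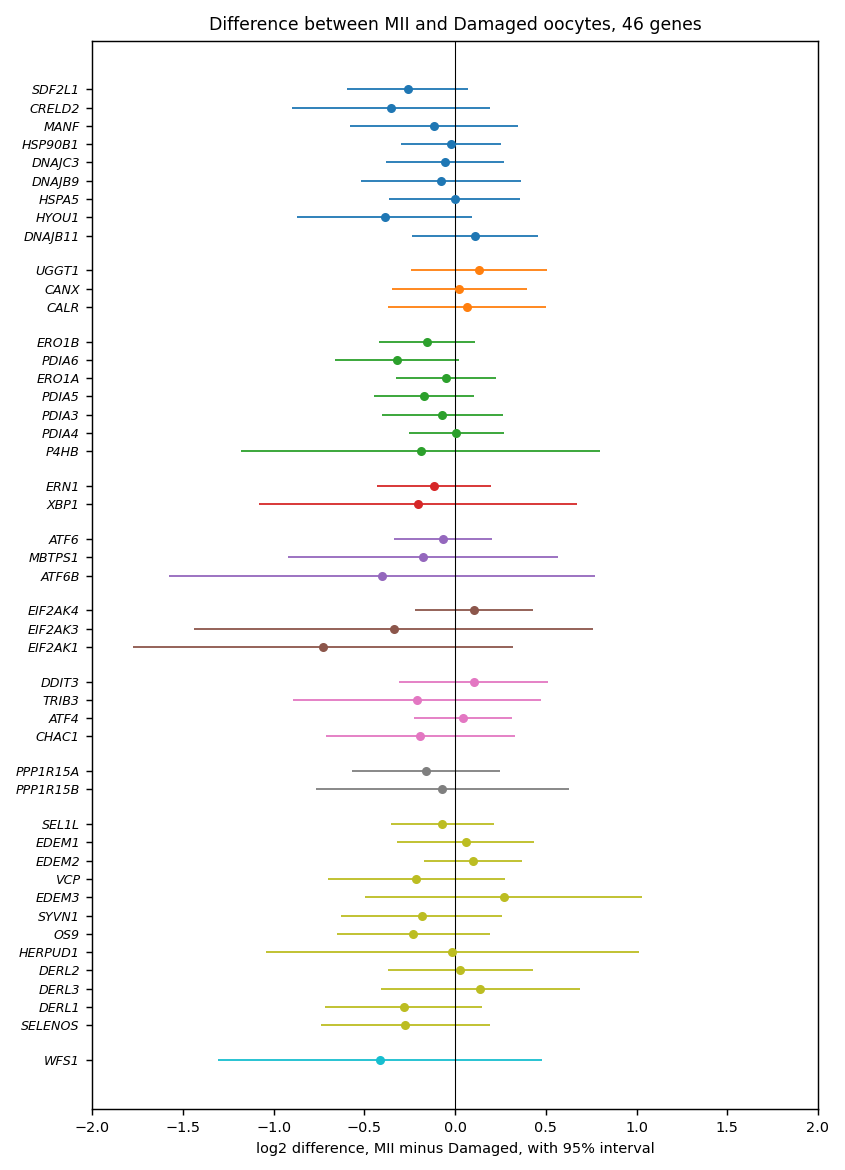
Log2 difference between MII and ‘damaged’ oocytes (x axis, n = 5 each) for 46 genes grouped by role (y axis), with the 95% interval as a bar. Every interval includes 0, and the widest belong to genes of low level such as *ATF6B*, *EIF2AK3* and *EIF2AK1*.

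The other genes of the pathway, 85 with a row and 78 tested, gave 20 that rose and 31 that fell between GV and matured oocytes, with a median log2 fold change of -0.13. These counts are 25.6% and 39.7% of the 78, near the 30.1% and 37% of all genes. Of the translocon and signal peptidase, through which proteins enter the ER, 6 of 17 rose and 8 fell, from *SPCS3* (-3.10 ± 0.14, FDR = 3.51e-13) to *SEC61B* (1.76 ± 0.12, FDR = 1.28e-10). In N-glycosylation and trimming, 6 of 13 rose and 3 fell, from *RPN2* (-2.08 ± 0.22, FDR = 3.96e-08) to *MAGT1* (1.42 ± 0.23, FDR = 1.18e-05). Among the other redox enzymes and prolyl isomerases, 2 of 17 rose and 6 fell, from *FKBP2* (-5.50 ± 0.32, FDR = 8.43e-12) to *GPX8* (1.60 ± 0.15, FDR = 6.98e-09). Among the other degradation genes, 4 of 14 rose and 5 fell, from *NPLOC4* (-3.59 ± 0.29, FDR = 1.18e-09) to *FAF2* (1.58 ± 0.12, FDR = 3.08e-10). Of the other stress-response factors and targets, 2 of 17 rose and 9 fell, from *CEBPB* (-4.67 ± 0.45, FDR = 1.19e-08) to *NFYB* (1.59 ± 0.15, FDR = 8.57e-09). This last list had the highest share of falls of the 5, with a median of -1.30. On library sizes 9 of the 78 rose and 49 fell, against 11.9% and 60.1% of all genes. Between MII and ‘damaged’ oocytes 0 of 78 were called by limma-voom, and 1 had an unadjusted p under 0.05.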

How the data were processed

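Reads were trimmed by the authors, and estimated counts for each transcript were deposited as kallisto 0.43 gave them from the Sscrofa11.1 cDNA, without normalization. The deposited TPM values come from the same run. The authors made the estimated counts per gene from TPM and mean transcript length (tximport, lengthScaledTPM). Of the 15 columns of that gene table, 7 sum to the total of a library named otherwise and were set aside. Transcripts were assigned to genes by matching sums over the other 8 columns (17585 of 18954 genes with a count, at least 99.986% of each library's counts), and gene counts of all libraries were recomputed. Symbols come from a name table (15527 of the 22516 genes had one) and positions from RefSeq on Sscrofa11.1.

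Gene counts were tested in 1 fit of 14 libraries with limma 3.58.1 (voom) after filterByExpr and TMM factors of edgeR 4.0.16 in R 4.3.3. Isoforms were tested with diffSplice. The FDR (Benjamini-Hochberg) is over all features tested. Genes with a value in every library were named by rule: in each role the largest rise and fall past the FDR without overlap of the MIX and GV libraries, and always *HSPA5*, *HSP90B1*, *ERN1*, *XBP1*, *EIF2AK3*, *ATF4* and *ATF6*. Other members are given to account for each. Members and lists were chosen with earlier results of these data known. Alternatives included library sizes, DESeq2 1.42.0, edgeR, other filters, summed estimated counts, all 5 GV libraries and leaving out each library. Between libraries of 1 group the chi-square per gene was 13.7 to 190.3 in 30 pairs, above counting error, so none was counted as a repeat. Tests were checked on simulated data. Promoter and protein sequences were not analysed here.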

Additional observations from a re-analysis of the deposited data

Results flagged for a closer look

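In 4 of 48 groups (16 named members in 3 groups each), 1 library stood apart from the rest by Dixon's test at 95%, where chance flags about 1 in 20. *CHAC1* was 16.2 CPM in MII replicate 5, beside 4.87 to 7.01 in the other 4 MII libraries, and 22.4 CPM in GV replicate 2, beside 29.2 to 30.3 in the other GV libraries. *ATF6* was 227 CPM in MII replicate 4, beside 192 to 201 in the others. *EIF2AK3* was 1.999 CPM in ‘damaged’ replicate 1, beside 0.319 to 0.759 in the others, and its fold change without that library was -1.15 (FDR = 0.0088).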

How the results depend on the processing

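Members called between matured and GV oocytes numbered 30 (16 rose, 14 fell). Without TMM factors 1 rose and 25 fell, in each of the 3 comparisons with GV. For matured against GV oocytes, that setting moved the members down by a median of 0.89 (log2). Under all other settings the counts stayed within 1.5 times. Leaving out 1 library gave 26 to 31 calls (13 to 17 rose, 12 to 15 fell), 24 to 27 for MII, 23 to 29 for ‘damaged’ and 13 to 22 isoforms. Of 380 fold changes of the named members under alternatives, 353 kept their direction and side of the threshold, and the exceptions not printed here are calls of *XBP1*, *EIF2AK3*, *HSPA5*, *ERO1B*, *ATF6* and *SEL1L*. *HSP90B1* turned to -0.76 without TMM factors and -0.19 with a filter of 10 CPM, *ERN1* to -0.74, to -0.18 and, with all 5 GV libraries, to -0.010, *SDF2L1* to -0.032 without TMM factors and *SEL1L* to -0.26 on summed estimated counts. The filter of 10 CPM moved the 33 members left by a median of -0.32. The groups share library numbers, but the labels do not say that a number marks a collection, and 3 of 13 same-numbered pairs had a correlation of deviations over 0.1. A fit with the replicate number as a block gave 31 calls (16 rose, 15 fell) and 20 isoforms, 30 calls (15 and 15) for MII, 28 (15 and 13) for ‘damaged’ against GV, and 0 between MII and ‘damaged’. Each library correlated best with its own number in 6 of 13 cases. Low counts limit *XBP1*, *EIF2AK3*, *EIF2AK1* and *ATF6B*.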

Other observations

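GV replicate 3, the library of lowest depth, was in no test of the report. Of the 47 members, 13 had a TPM there within the range of the other 4 GV libraries, 22 were above it and 12 below. *HSPA5* was at 92.7 TPM (131.7 to 200.8 in the others), *DERL1* at 54.3 (42.1 to 49.2), *ATF4* at 156.8 (77.0 to 131.6), *SELENOS* at 80.2 (115.2 to 124.3) and *EIF2AK4* at 15.1 (18.2 to 27.6).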
